A study of Caenorhabditis elegans with 357 samples.

Results

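The astacin metalloproteases of Caenorhabditis elegans that carry a nas symbol were followed through L4, the last larval stage, in single animals. Every gene whose symbol starts with nas- and a number in both deposited tables was taken, which gave 35 of the 19364 genes that both tables list. Each of the 357 libraries is polyA RNA of 1 whole animal, made with SMART-seq2 and Nextera; the animals grew from bleached eggs, alone in imaging arenas on UV-killed OP50 bacteria, and were cut open and frozen at a recorded number of minutes in L4. The tph-1 group holds 164 animals of strain MT15434, genotype tph-1(mg280) II, which carries a mutation in the tryptophan hydroxylase gene of serotonin synthesis, and all other animals are wild-type N2. Sampling covered 9.59 to 596.0 min of the stage in tph-1 and 10.7 to 599.2 min in N2. Each group is 1 strain, so a difference between the groups can belong to any difference between those strains. What mg280 removes from tph-1 is not in the labels.

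Astacins are zinc endopeptidases, most of them secreted, that cut extracellular matrix proteins and peptides. Nematodes have an enlarged family of them. A larva replaces its cuticle at each molt, and astacins are known in the worm for detaching the old cuticle, for maturing cuticle collagens, for hatching and for building the grinder, the cuticular teeth of the pharynx.

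The values are RPM, reads scaled to the size of the library. All log2 values below are of RPM + 1, a scale on which changes of low genes come out too small. Reads in genes ran from 437993 to 5175666 per tph-1 animal (median 1764815) and from 587469 to 11544404 per N2 animal (median 2922062). A single read was therefore worth 0.193 to 2.28 RPM in tph-1 and 0.0866 to 1.70 RPM in N2. The tph-1 transcript itself had a median of 1.81 RPM in tph-1 animals and 2.73 RPM in N2 animals, a difference of -0.46 ± 0.23 (SE) that did not pass limma (adjusted p = 0.192); it sums the whole gene and checks no allele. Titles split the animals into 4 tph-1 sets and 8 N2 sets, which the labels do not define, and each set holds 1 strain. All 4 tph-1 sets span early and late L4, though set 2 has 2 early animals and set 4 has 1 late animal. Only 4 of the 8 N2 sets do, with 1 or 2 late animals each, so late against early in N2 rests largely on sets joined through mid L4. Of the N2 animals, 5 stood apart. In N2 set 4, 4 animals between 281.1 and 368.7 min had 23.9 to 326 RPM over 4 intestine markers, against at least 435 RPM in every other animal. In N2 set 1, an animal labelled 51.8 min had 2131 RPM of nas-30 and a summed 3347 RPM over the nas genes. Without these 5 the 13 counts of members given below were the same, except 5 in place of 6 members lower in mid L4 in N2.

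Of the 35 genes, 31 reached 5 RPM in at least 10% of the animals and were tested among 14293 genes. Most of them changed along L4. A spline of the minutes called 30 of 31 members in tph-1 and 25 of 31 in N2 (limma F test, Benjamini-Hochberg adjusted p under 0.05 and a fitted range of at least 1 log2 unit), against 74.9% of all tested genes in tph-1 and 51.1% in N2. Both strains called 24 members, tph-1 alone 6 and N2 alone 1, nas-12. The same split was not made over all tested genes, so these counts are not a result about the members. The median fitted range of the members was 2.86 log2 units in tph-1 and 2.69 in N2, where the median over all tested genes was 1.40 and 1.03. After rescaling of the libraries (TMM), 26 of 31 were called in tph-1, with 41.3% of all tested genes, and 25 in N2, with 38.7%. Whether the strains differ in these counts was not tested.

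**Figure D1:**
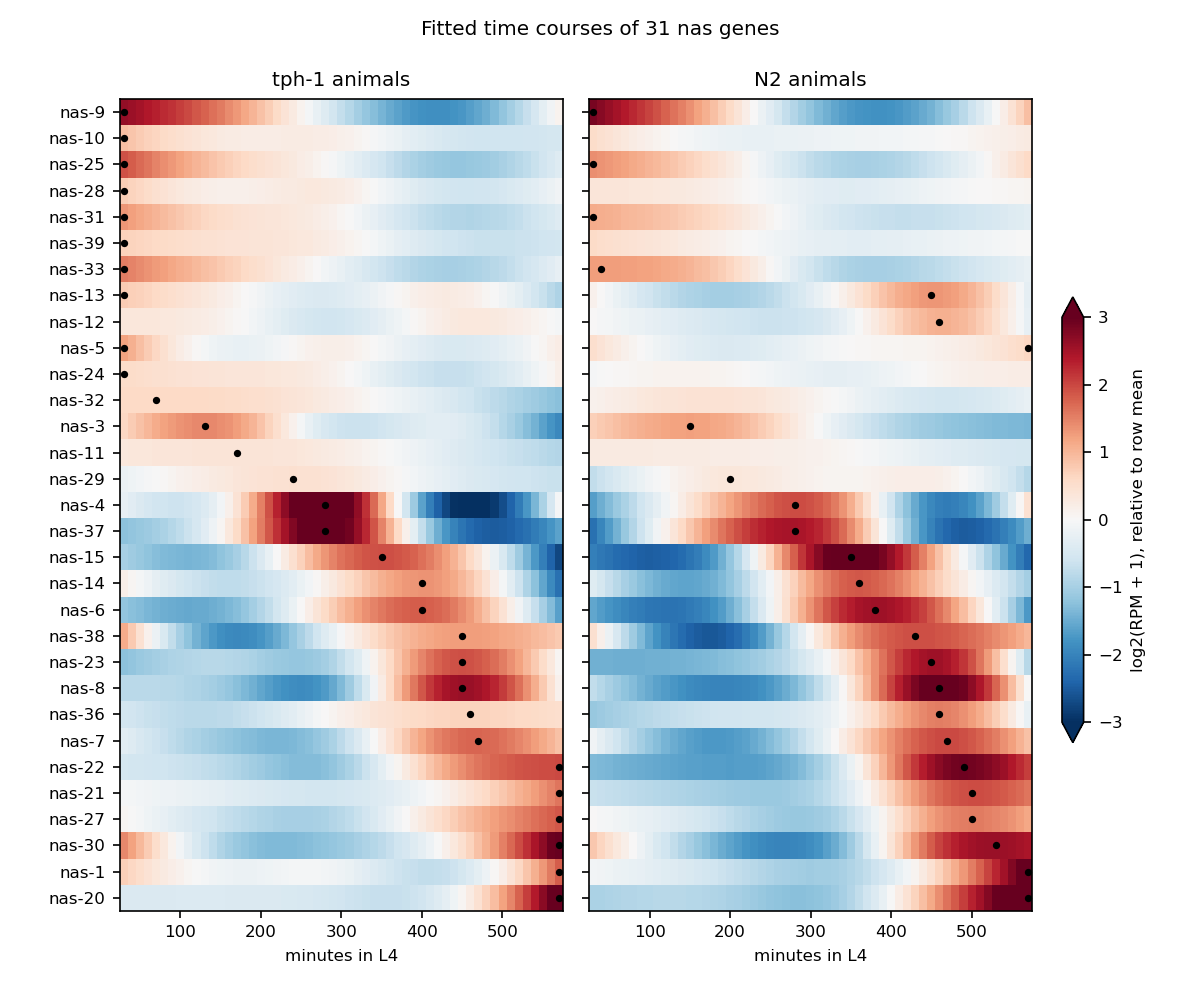
Fitted time courses of the 31 tested nas genes in tph-1 (left) and N2 (right), with minutes in L4 across, 1 gene per row and colour for the log2(RPM + 1) relative to the row's mean. Black dots mark the highest point of each called curve; read downwards they move from 30 min (nas-9) through 280 min (nas-4 and nas-37) and 450 min (nas-23 in both strains) to 570 min (nas-1 and nas-20).

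The highest points of the fitted curves were spread over the whole stage in both strains. Of the 24 members called in both, 11 peaked at the same minute and 16 within 30 min of each other. Over 100 min apart were 2, nas-5 and nas-13. Agreement of peaks was not counted over all genes, so it is not a result about the members. From 400 to under 500 min 7 of 30 called members (23.3%) peaked in tph-1, against 2.91% of all called genes, and 8 of 25 (32%) in N2, against 5.78%. Under 100 min it was 11 of 30 (36.7%) in tph-1, against 62.4% of called genes, and 4 of 25 (16%) in N2, against 37.8%. After rescaling the tph-1 peaks of nas-13, nas-24, nas-32 and nas-39 left this class, for 440, 570, 170 and 250 min. The share of all genes in it after rescaling was not counted. The grid of fitted minutes began at 30 and ended at 570, and curves highest at an end were placed at those limits. Among the shared minutes, those of nas-1, nas-9, nas-20, nas-25 and nas-31 were at a limit in both strains. A limit need not be where the medians were highest. For nas-1 in N2, placed at 570 min, the median was 67.1 RPM from 500 to 550 min and 10.8 RPM from 550 to 600 min. Fit and medians could differ inside the grid as well. The curve of nas-15 was highest at 350 min in both strains. Its highest 50 min median was 62.9 RPM from 400 to 450 min in tph-1 and 101 RPM from 350 to 400 min in N2. For nas-36, fitted at 460 min in both strains, leaving out single sets moved the tph-1 peak between 360 and 570 min.

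Per kilobase of exon, the highest median in the first 100 min was that of nas-9, at 43.3 RPM per kb in tph-1 and 46.9 in N2. From 100 to 200 min nas-9 still led in tph-1 with 26.3 RPM per kb, while in N2 nas-11 led with 22.03, next to nas-9 with 21.4. From 200 to 300 min nas-4 led in tph-1 with 71.8 RPM per kb, next to nas-37 with 61.5, and nas-37 led in N2 with 87.8, next to nas-4 with 68.8. From 300 to 400 min nas-15 led with 25.98 RPM per kb in tph-1 and 44.8 in N2. From 400 to 500 min nas-8 led with 36.9 in tph-1 and 38.2 in N2. In the last 100 min nas-36 (32.8) and nas-30 (29.5) led in tph-1, and nas-30 (50.04) and nas-1 (32.8) in N2. The sum over all 35 genes had its lowest median from 100 to 200 min, at 276 RPM in tph-1 and 262 RPM in N2, and stood at 585 RPM in tph-1 and 626 RPM in N2 in the last 100 min.

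Signed changes were tested between early (under 200 min; 47 tph-1 and 49 N2 animals), middle (200 to under 400 min; 70 tph-1 and 67 N2 animals) and late L4 (400 min or later; 47 tph-1 and 77 N2 animals), with set as a covariate and a change of at least 1 log2 unit. Late against early, 11 of 31 members were higher in tph-1, where 10.1% of all tested genes were, and 8 were lower, where 23.6% were. In N2 13 members were higher, with 11.4% of all genes, and 4 lower, with 8.19%. The 11 of tph-1 were all among the 13 of N2: nas-6, nas-7, nas-8, nas-20, nas-21, nas-22, nas-23, nas-27, nas-30, nas-36 and nas-38. After rescaling of the libraries (TMM), which moved the median change of all genes from -0.68 to -0.11 in tph-1 and from -0.36 to -0.06 in N2, the split was 12 higher and 3 lower in tph-1 (14.1% and 5.58% of all genes) and 13 higher and 2 lower in N2 (13.3% and 3.97%). With edgeR on the recovered reads it was 15 higher and 6 lower in tph-1 (15.1% and 7.47% of all genes) and 16 higher and 2 lower in N2 (15.4% and 4.37%). In mid L4 against the mean of both ends, 4 members were higher in tph-1 (3.04% of all genes) and 4 in N2 (3.51%), and the same 4 genes were called in both: nas-4, nas-6, nas-15 and nas-37. Within the sets that hold all windows the direction was shared by 4 of 4 for each gene in tph-1 and for nas-4 and nas-37 in N2, by 3 of 4 for nas-15 in N2 and by 2 of 4 for nas-6 in N2. Members lower in mid L4 were 4 in tph-1 (2.55% of all genes) and 6 in N2 (3.02%), among them nas-22, nas-27 and nas-30 in both strains. Leaving out tph-1 set 1 gave 8 members lower in mid L4 in tph-1, and leaving out N2 set 1 gave 2 lower late in N2, both without a share over all genes beside them. The mid-L4 call of nas-6 in tph-1, 1.01 ± 0.22, fell under the threshold when tph-1 set 1 (0.99) or tph-1 set 3 (0.69) was left out.

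The first enzyme by role is nas-37, needed to shed the old cuticle at each molt and on chromosome X. It was a mid-L4 gene. Over tph-1 animals its level in mid L4 had a lowest value of 1.64, a median of 135 and a highest value of 432 RPM, with medians of 13.01 RPM early and 3.94 RPM late. In N2 the mid-L4 level ran from 3.39 to 489 RPM with a median of 142.2 RPM, and the medians were 11.7 RPM early and 3.84 RPM late. Every late animal stood below the mid-L4 median of its own strain, with highest late values of 28.5 RPM in tph-1 and 11.9 RPM in N2. Mid L4 was above the ends by 3.24 ± 0.21 in tph-1 (limma adjusted p = 7.53e-32) and by 3.06 ± 0.21 in N2 (1.04e-29), in all 4 sets of tph-1 and all 4 N2 sets that hold each window. In 50 min steps the highest median was 177 RPM in tph-1 and 272 RPM in N2, both from 250 to 300 min, and the fitted curve was highest at 280 min in both strains. Leaving out single sets moved that peak between 250 and 280 min in tph-1 and 240 and 280 min in N2. Late against early it fell by 1.55 in tph-1 (adjusted p = 5.37e-06), and by 0.997 after rescaling, which ended that call.

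The other astacin of ecdysis, nas-36, followed another course, with high medians in mid and late L4. In tph-1, where all 9 animals of the first 50 min are of set 4, nas-36 was also high at the start. In tph-1 its 50 min medians were 28.4 RPM in the first 50 min, 30.9 RPM from 250 to 300 min, 12.3 RPM from 350 to 400 min and 115 RPM from 500 to 550 min. In N2 they were 9.48 RPM in the first 50 min, 38.7 RPM from 250 to 300 min, 14.1 RPM from 350 to 400 min and 73.9 RPM from 450 to 500 min, then 38.9 RPM from 500 to 550 min. The mid-L4 maximum fell in the same 50 min as that of nas-37, and the late one came when nas-37 was at 3.004 to 4.27 RPM in both strains. Late values ran from 2.96 to 219 RPM in tph-1 (median 50.3) and from 0.552 to 134 RPM in N2 (median 40.4), and early values overlapped them, with medians of 15.7 RPM in tph-1 and 9.01 RPM in N2. Late against early, nas-36 rose by 1.79 ± 0.29 in tph-1 (limma adjusted p = 1.91e-08) and by 1.98 ± 0.40 in N2 (8.49e-06). In N2 only 2 of the 4 sets with all windows showed that direction. In the last 100 min the tph-1 median of 74.2 RPM was above the N2 median of 13.2 RPM, yet the test of a different course between the strains gave an adjusted p of 0.740.

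**Figure D2:**
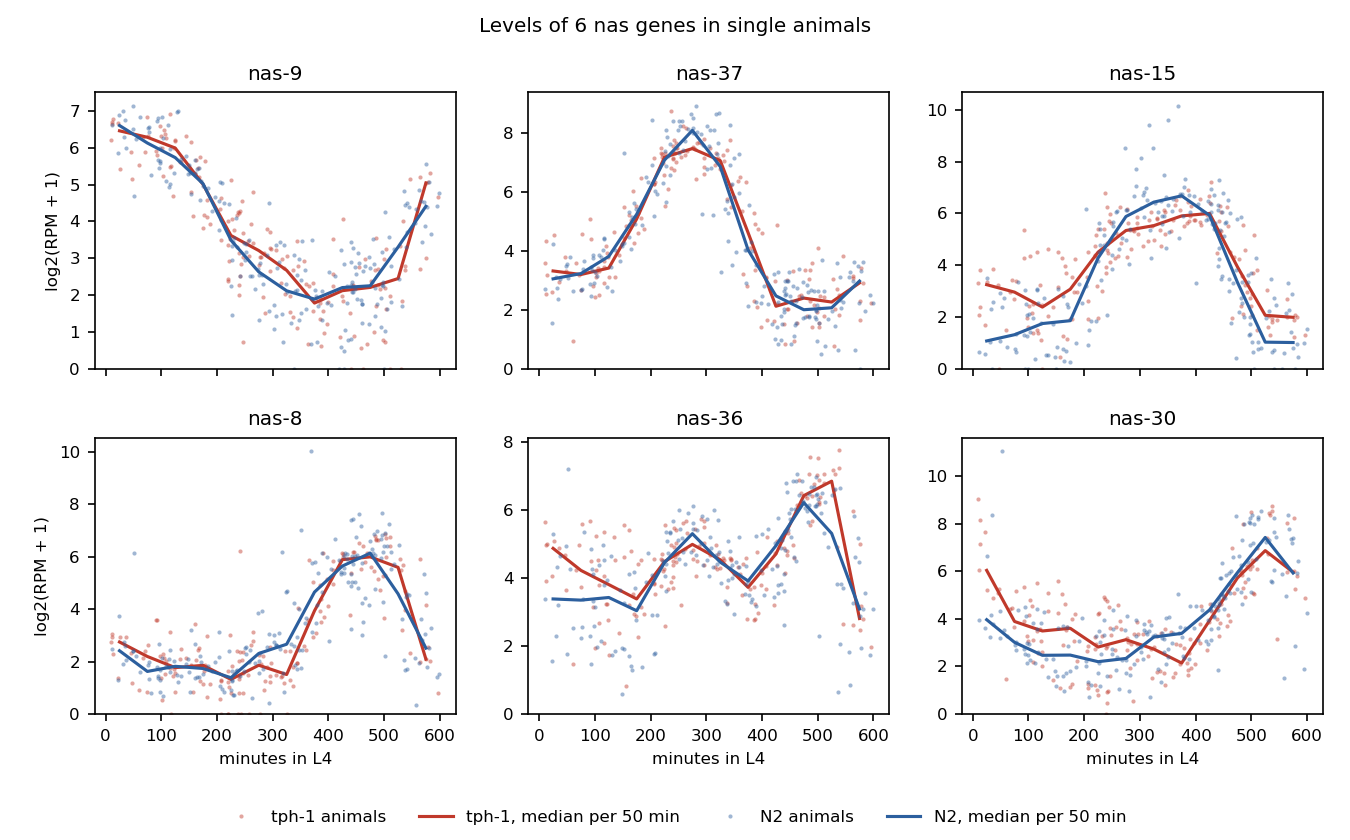
Levels of nas-9, nas-37, nas-15, nas-8, nas-36 and nas-30 against minutes in L4, 1 point per animal (tph-1 red, N2 blue), with lines through the medians of 50 min steps, on the log2(RPM + 1) scale. Levels of nas-9 are high first, nas-37 peaks near 280 min, nas-36 has a smaller peak in mid L4 and a larger one late, and a single N2 point at 51.8 min stands at 2131 RPM in the nas-30 panel.

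The grinder astacins nas-6 and nas-7, which shape the teeth of the pharynx, peaked one after the other. For nas-6 the 100 min median was highest from 400 to 500 min in tph-1, at 33.9 RPM (range 7.94 to 79.2), and from 300 to 400 min in N2, at 38.3 RPM (9.23 to 916). In the last 100 min it was down to 5.12 RPM in tph-1 and 1.60 RPM in N2. Its curve was highest at 400 min in tph-1 (370 to 410 min without single sets) and at 380 min in N2 (380 to 390 min). Late against early it rose by 1.76 ± 0.33 in tph-1 (limma adjusted p = 6.79e-07) and by 1.59 ± 0.48 in N2 (0.00299). For nas-7, whose gene lies on chromosome II 146.6 kb from tph-1, late values ran from 3.96 to 70.9 RPM in tph-1 (median 32.7) and from 2.37 to 92.01 RPM in N2 (median 29.6). The early medians were 7.38 RPM in tph-1 and 3.22 RPM in N2. Early and late animals overlapped in both strains. Its curve was highest at 470 min in both, and late against early it rose by 2.02 ± 0.32 in tph-1 (7.53e-09) and 1.26 ± 0.37 in N2 (0.00194). The N2 rise of nas-7 was 0.90 without N2 set 4, under the threshold.

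Close to these in time were nas-15, nas-14 and nas-8, for which no role is given here. In mid L4 nas-15 ran from 2.82 to 117 RPM in tph-1 (median 40.4) and from 0.864 to 1148 RPM in N2 (median 64.9), and the windows overlapped. Early medians were 5.42 RPM in tph-1 and 1.68 RPM in N2, and late medians 8.41 RPM in tph-1 and 9.04 RPM in N2. Mid L4 was above the ends by 1.80 ± 0.23 in tph-1 (limma adjusted p = 1.70e-11) and 2.75 ± 0.30 in N2 (1.98e-15), and the curve was highest at 350 min in both. The late rise of nas-15 over early L4 in N2, 1.19 ± 0.53 (0.0455), was lost under 6 of 15 other settings, among them without N2 set 1, 4, 7 or 8 (0.75 to 1.21). The 100 min median of nas-14 was highest from 400 to 500 min in tph-1, at 15.9 RPM, and from 300 to 400 min in N2, at 18.6 RPM. Its fitted range was 3.60 in tph-1 (F test adjusted p = 7.49e-15) and 3.46 in N2 (5.26e-20). For nas-8, late values ran from 0.739 to 114.2 RPM in tph-1 (median 50.4) and from 0.270 to 199.9 RPM in N2 (median 42.2), with early medians of 3.22 RPM in tph-1 and 2.58 RPM in N2. It rose late by 2.83 ± 0.34 in tph-1 (2.25e-13) and 2.15 ± 0.48 in N2 (4.92e-05), in all 4 sets of each strain with all windows, and peaked at 450 min in tph-1 and 460 min in N2.

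Sums of tissue markers moved along L4 as well. Over 4 hypodermis markers the median was 278, 1145 and 45.9 RPM in early, middle and late tph-1 animals, and 430, 897 and 62.1 RPM in N2. Over 4 pharynx markers it was 2815, 886 and 370 RPM in tph-1 and 2666, 1082 and 560 RPM in N2, so the pharynx sum was lowest in late L4, where the medians of nas-7 and nas-8 were highest. All markers of both lists were detected at 1 RPM in the median animal. Over 3 sperm markers the median rose from 21.2 RPM early to 2364.5 RPM late in tph-1, and from 7.43 to 1661.99 RPM in N2. Late medians of the intestine, body-wall muscle and neuron sums were below the early ones in both strains, and that of the germline sum was above. A sum also follows the courses of its own marker genes, which need not be those of the tissue. In whole animals fewer cells of a type and less RNA per cell cannot be told apart. The part of tissue shares in these results was not tested. In the N2 animal at 368.7 min with 213 RPM of intestine markers and 7864 RPM of pharynx markers, nas-15 stood at 1148 RPM, nas-6 at 916 RPM and nas-14 at 444 RPM, the highest values of these genes in any animal.

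The sleep-linked astacin nas-38, known for its part in the quiet period around each molt, was high at both ends of the stage. In the first 50 min its median was 39.2 RPM in tph-1 and 22.03 RPM in N2 (9 animals each, those of tph-1 all from set 4). From 150 to 200 min it was 3.86 RPM in tph-1 and 2.36 RPM in N2, and from 500 to 550 min 38.3 RPM in tph-1 and 42.2 RPM in N2. Late values ran from 7.92 to 75.9 RPM in tph-1 (median 35.2) and from 0.676 to 95.1 RPM in N2 (median 35.9). Late against early nas-38 rose by 2.06 ± 0.32 in tph-1 (limma adjusted p = 3.61e-09) and 1.87 ± 0.39 in N2 (1.27e-05), in all 4 sets of each strain with all windows. By contrast nas-39, the member most like the tolloid and BMP1 proteases, had its highest median in the first 100 min, 21.4 RPM in tph-1 and 11.001 RPM in N2. It was called along L4 in tph-1 (fitted range 1.36, adjusted p = 4.48e-05) and not in N2 (0.87, 0.0621). Part of nas-39 shares 276 bp of the same strand with another annotated gene, so its reads are uncertain.

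Several members without a role given here were highest when L4 began. One was nas-9 (chromosome V), whose early values ran from 13.1 to 119.2 RPM in tph-1 (median 57.7) and from 18.4 to 140.7 RPM in N2 (median 50.9). Its late medians were 3.84 RPM in tph-1 and 5.16 RPM in N2. The early animals of each strain all stood above these late medians, though the highest late values, 38.7 RPM in tph-1 and 46.005 RPM in N2, overlapped the early range. Late against early nas-9 fell by 2.86 ± 0.27 in tph-1 (limma adjusted p = 3.01e-19) and fell by 2.08 ± 0.33 in N2 (1.81e-08), in all 4 sets of each strain with all windows. Its median from 550 to 600 min was 31.98 RPM in tph-1 (7 animals) and 20.3 RPM in N2 (13 animals), higher than the 4.46 RPM of tph-1 and 8.87 RPM of N2 in the 50 min before, a step that was not tested. Likewise nas-25, nas-31 and nas-33 peaked at 30 to 40 min in both strains. In tph-1 nas-25 fell by 1.75, nas-31 by 1.40 and nas-33 by 1.51 late against early. In N2 nas-31 fell by 1.08 and nas-33 by 1.13, and nas-25, at -0.97, was inside the threshold of 1. After rescaling only 2 members were lower late in N2, nas-3 and nas-9, so the N2 calls of nas-31 and nas-33 were lost. In tph-1 3 members, nas-3 and nas-9 among them, stayed lower, so not all of the falls above kept their call. Later came nas-3, with its highest 50 min median from 100 to 150 min, 10.1 RPM in tph-1 and 12.4 RPM in N2. Its late median was 0.576 RPM in tph-1 and 0.376 RPM in N2, and the late minus early change was -2.68 ± 0.24 in tph-1 (9.20e-21) and -2.34 ± 0.29 in N2 (9.05e-13).

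The peak of nas-4 (chromosome III) fell beside that of nas-37. Its mid-L4 values ran from 0 to 690 RPM in tph-1 (median 103) and from 1.14 to 634 RPM in N2 (median 91.6), against late values of at most 28.2 RPM in tph-1 and 29.7 RPM in N2. Mid L4 was above the ends by 3.22 ± 0.28 in tph-1 (limma adjusted p = 1.58e-20) and 2.55 ± 0.27 in N2 (2.53e-16). Both strains peaked at 280 min, and the highest 50 min median came from 200 to 250 min in tph-1 (174 RPM) and from 250 to 300 min in N2 (234 RPM). The late fall of nas-4 in tph-1, -1.20 ± 0.43 (0.00812), was under the threshold without tph-1 set 1 (-0.94), after rescaling (-0.73) and with a pseudocount of 5 (-0.66). In N2 that contrast of nas-4 was 0.65 ± 0.47 and did not pass (0.231), and 1 of the 4 N2 sets with all windows had that sign. Over 437 bp nas-4 overlaps a gene on the same strand, so its reads are uncertain.

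At the close of L4 stood nas-23, nas-30, nas-1 and the neighbours nas-20, nas-21 and nas-22. Late nas-23 values ran from 0 to 43.9 RPM in tph-1 and from 0 to 76.7 RPM in N2, with a median of 17.7 RPM in both and early medians of 1.79 RPM in tph-1 and 0.946 RPM in N2. It rose by 2.35 ± 0.27 in tph-1 (limma adjusted p = 5.40e-14) and 2.20 ± 0.39 in N2 (4.96e-07) and peaked at 450 min in both; its gene lies 55.6 kb from tph-1. Late nas-30 values ran from 5.38 to 432 RPM in tph-1 (median 46.3) and from 1.89 to 365 RPM in N2 (median 52.1), against mid-L4 values of at most 29.2 RPM in tph-1 and 31.96 RPM in N2. Late against early nas-30 rose by 2.05 ± 0.36 in tph-1 (1.82e-07) and 1.80 ± 0.46 in N2 (0.000393). It too was high at the start. In the first 50 min its median was 64.7 RPM in tph-1 (all animals of set 4) and 14.6 RPM in N2. Early values of nas-30 reached 529 RPM in tph-1 and 2131 RPM in N2.

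Animals differed widely in nas-1, the late member with the largest spread around the N2 curve. In the last 100 min it ran from 1.23 to 209 RPM in tph-1 (median 6.65) and from 0 to 410 RPM in N2 (median 38.3). Its residual SD around the fit was 1.28 log2 units in tph-1 and 1.68 in N2. The N2 rise late against early, 1.32 ± 0.59 (limma adjusted p = 0.0441), was lost under 9 of 15 other settings, 6 of them without N2 set 2, 3, 4, 5, 6 or 8 (0.85 to 1.43). In tph-1 the same contrast was 0.24 ± 0.35 and did not pass (0.506). Whether the course of nas-1 differed between the strains did not pass either (adjusted p = 0.142).

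The genes nas-20, nas-21 and nas-22 lie next to each other on chromosome V (11470925 to 11478007, WBcel235), with 255 and 800 bp between them. In every 100 min step before 400 min their medians were at most 2.26 RPM, and all 3 rose late in both strains. Late against early nas-20 rose by 1.59 ± 0.26 in tph-1 and 2.45 ± 0.37 in N2, nas-21 by 1.02 ± 0.26 in tph-1 and 1.92 ± 0.28 in N2, and nas-22 by 2.40 ± 0.26 in tph-1 and 2.81 ± 0.31 in N2 (limma adjusted p from 5.12e-16 to 0.000246). The tph-1 rise of nas-21 was 0.94 without tph-1 set 1, 0.90 without tph-1 set 4 and 0.48 with a pseudocount of 5, under the threshold. In tph-1 all 3 curves were highest at 570 min, the end of the fitted grid. In N2 it was 570 min for nas-20, 500 min for nas-21 and 490 min for nas-22. Over 969 bp nas-22 shares the strand with another annotated gene, so its reads are uncertain.

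A second run of neighbours on the same chromosome, nas-16, nas-18, nas-17 and nas-19 (11392320 to 11402710), made up all 4 members under the filter. At least 5 RPM was reached by 0% to 0.840% of the animals. A read of nas-17 was found in 96 tph-1 animals, with a highest value of 8.56 RPM, and in 55 N2 animals, with a highest value of 3.40 RPM. The other 3 had a median of 0 RPM in both strains. The member nearest above the filter was nas-20, at 5 RPM or more in 18.2% of the animals.

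The remaining members follow. Called in tph-1 and not in N2 were nas-10, nas-11, nas-24, nas-28, nas-32 and nas-39, all with fitted ranges of 1.26 to 1.87 in tph-1 and 0.48 to 0.98 in N2. Among these nas-11 was the one member at 5 RPM or more in 100% of the animals; its medians were 35.6, 25.9 and 14.03 RPM in early, middle and late tph-1 animals and 39.4, 32.03 and 17.2 RPM in N2. It was nas-12 that passed in N2 (range 1.71, peak at 460 min) and not in tph-1 (0.91). In both strains nas-27 rose late, by 1.75 ± 0.36 in tph-1 and 1.15 ± 0.42 in N2. The range was 1.14 in tph-1 and 1.19 in N2 for nas-29, and 1.67 in tph-1 and 1.04 in N2 for nas-5. Reads of nas-7, nas-8, nas-10 to nas-13, nas-25, nas-29, nas-33 and nas-37 are uncertain where those genes overlap a protein-coding one on the opposite strand. Noncoding RNA genes also overlap nas-13, over 150 and 225 bp, and nas-30.

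Averaged over L4, no member was called for a strain difference. Over 4 tph-1 sets against 8 N2 sets, limma called 0 of 31 members higher in tph-1, where 0.287% of all tested genes were, and 0 lower, where 0.147% were. At an unadjusted p under 0.05 there were 2 members, nas-13 with 0.47 ± 0.20 and nas-21 with 0.44 ± 0.19 (adjusted p = 0.151 for both), while 3937 of all genes (27.5%) were at that level. Set levels of nas-13 ran from 2.56 to 2.93 in tph-1 and from 1.50 to 2.88 in N2, so the groups overlapped, as they did for nas-21 with 1.85 to 2.12 in tph-1 and 1.09 to 2.21 in N2. The 31 differences ran from -0.33 (nas-5) to 0.47, with SEs of 0.13 to 0.29 and a median of 0.10, against a median of -0.10 over all tested genes. After rescaling the medians were 0.21 for the members and 0.05 for all genes.

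Fits that ignore the sets called more. Over single animals limma called 6 members higher in tph-1 (nas-13, nas-21, nas-24, nas-33, nas-36 and nas-39, by 0.23 to 0.48), where 20.1% of all genes were, and 3 lower (nas-5, nas-11 and nas-25, by -0.33 to -0.17), where 43.6% were. Over the same animals edgeR called 7 members higher, where 33.9% of all genes were, and 0 lower, where 25.1% were. Such p-values treat animals of 1 set as independent. Without N2 set 7, nas-21 alone was called higher in tph-1, at 0.55, where 3.81% of all genes were.

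**Figure D3:**
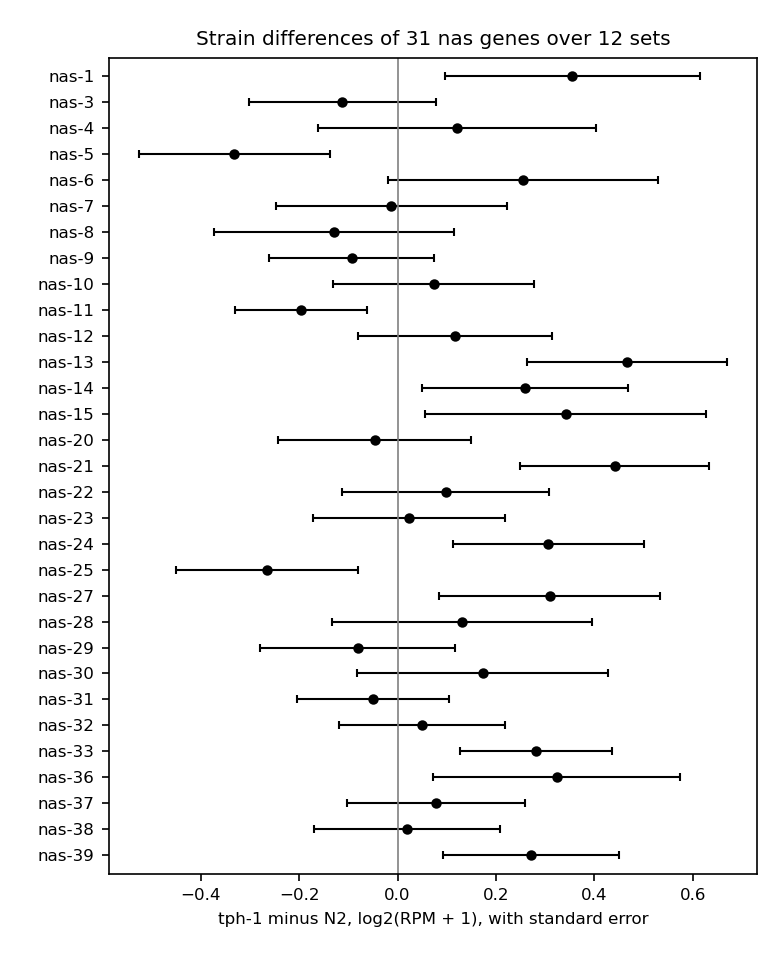
Strain difference of each tested nas gene, tph-1 minus N2, on the log2(RPM + 1) scale, averaged over L4; points are estimates over 4 tph-1 and 8 N2 sets and bars are standard errors. The values lie between -0.33 for nas-5 and 0.47 for nas-13, and no member passed the test.

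The course through L4, as opposed to the average level, was called different between strains for 4 of 31 members, nas-13, nas-20, nas-21 and nas-22, where 2.17% of all tested genes were called (limma F test of strain by spline). This F test covers the whole course. It was run over animals with an intercept per set, so its p-values treat the courses of animals of 1 set as independent, though each set holds 1 strain. The late minus early change of tph-1 minus that of N2 is given beside it as a signed size and was not tested by itself. For nas-20 the F test gave an adjusted p of 0.00174, and the signed size was -0.86 ± 0.45. In the last 100 min nas-20 ran from 2.05 to 73.1 RPM in tph-1 (median 9.80) and from 1.70 to 185.6 RPM in N2 (median 19.7). For nas-21 the F test gave 0.00622 and the signed size was -0.90 ± 0.38. Its first 100 min had a median of 2.18 RPM in tph-1 and 0.838 RPM in N2, and its last 100 min 10.04 RPM in tph-1 and 5.55 RPM in N2. For nas-22 the F test gave 0.0170 and the signed size was -0.41 ± 0.40, about as large as its error, with medians of 1.62 RPM in tph-1 and 0.367 RPM in N2 in the first 100 min and 20.6 RPM in tph-1 and 14.3 RPM in N2 in the last. So for nas-21 and nas-22 the tph-1 median was the higher one in both the first and the last 100 min.

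**Figure D4:**
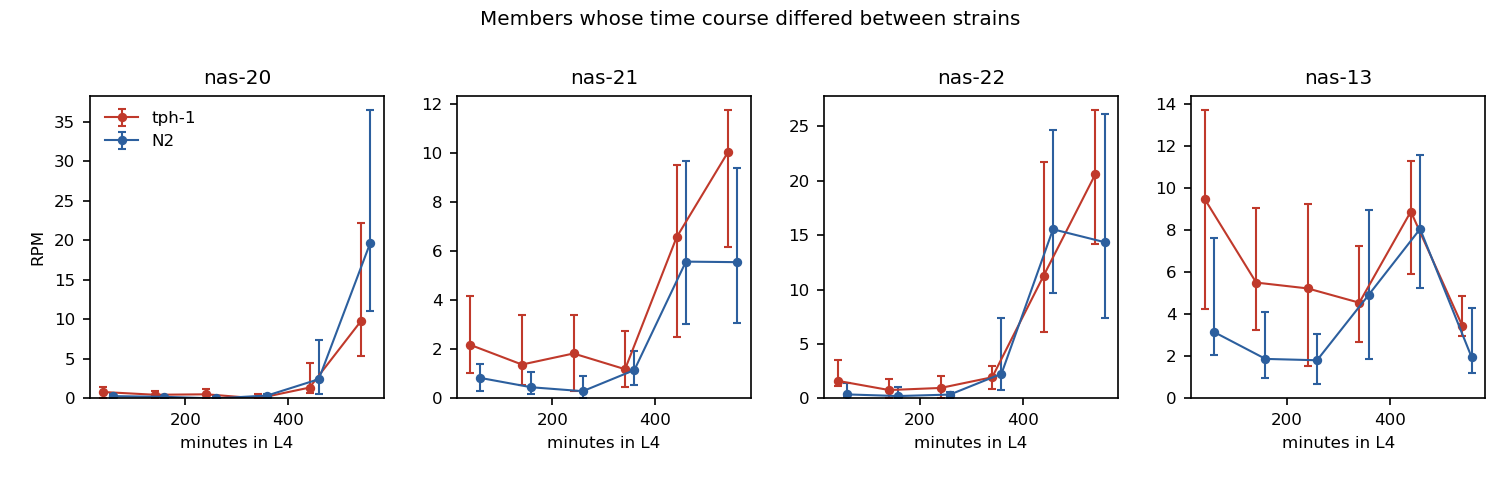
Median RPM of nas-20, nas-21, nas-22 and nas-13 per 100 min of L4 in tph-1 (red, drawn left) and N2 (blue), with bars for the quartiles. In nas-20 the N2 median is the higher one in the last 100 min (19.7 RPM, tph-1 9.80 RPM), and in nas-13 the tph-1 medians are higher in the first 300 min.

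For nas-13 the tph-1 medians were the higher ones in the first 300 min. Its medians were 9.50, 5.52 and 5.24 RPM in the first 3 steps of 100 min in tph-1 and 3.16, 1.88 and 1.82 RPM in N2, followed by 8.90 RPM in tph-1 and 8.07 RPM in N2 from 400 to 500 min. The animals overlapped, with 1.80 to 30.9 RPM in tph-1 and 0.389 to 13.6 RPM in N2 in the first 100 min. The fitted curve was highest at 30 min in tph-1 and at 450 min in N2. The F test of the whole course gave a limma adjusted p of 0.0109, and the signed size was -0.96 ± 0.42. After rescaling the tph-1 peak of nas-13 was at 440 min.

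These 4 calls differed in how far they held. The calls of nas-20 (adjusted p 1.01e-10 to 0.0240) and nas-21 (0.000544 to 0.0265) were kept under all 19 other settings counted for them. Those 19 left out edgeR, which gave no signed size, and a filter at a mean of 10 RPM, which all 4 genes fell under. The call of nas-13 was lost without N2 set 4 (signed size -0.76) or 5 (-0.65), and that of nas-22 without tph-1 set 1 (-0.30), N2 set 3 (-0.10) or N2 set 4 (-0.16) and after rescaling (-0.09). Median depth was lower in tph-1, and levels under 1 RPM are near the worth of 1 read; the part of depth in the early values was not tested. The count of members with a different course was 7 without tph-1 set 3, 10 without tph-1 set 4, 7 without N2 set 1 and 2 without N2 set 4, and 9 with edgeR on the recovered reads, where 4.32% of all genes were called. The counts without single sets have no share over all genes beside them, so they are not a result about the members. An age predicted from other genes, minus the labelled minutes, had a median of 55.2 min in tph-1 and -8.37 min in N2. The predictor was fitted to N2 animals alone, and each N2 set was predicted from the other N2 sets. An offset of age in tph-1 therefore cannot be told apart from other strain differences in those genes. With the predicted age in place of the minutes, 20 members and 4568 of all genes were called. The animal labelled 51.8 min in N2 had a predicted age of 229 min.

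Genes around the nas family in cuticle turnover were described from lists of known roles. Of the 3 astacins with other symbols, dpy-31, which processes the collagen SQT-3, peaked at 250 min in tph-1 and 200 min in N2, with medians of 67.4 RPM in tph-1 and 81.2 RPM in N2 from 200 to 300 min. A high start and a high end, as in nas-30, marked toh-1, with medians of 41.6 RPM in the first 100 min, 4.61 RPM from 300 to 400 min and 24.8 RPM in the last 100 min in tph-1, and of 19.4, 5.99 and 62.99 RPM at those times in N2. Along L4, 16 of 19 other extracellular proteases were called in tph-1 and 15 in N2. Late against early 3 rose and 7 fell in tph-1, and 2 rose and 4 fell in N2. The cathepsin genes cpz-1 and cpl-1 peaked at 400 and 380 min in tph-1 and 390 and 340 min in N2, and the matrix metalloproteases zmp-2 and zmp-3 fell late by 3.47 and 4.05 in tph-1 and by 1.69 and 2.60 in N2.

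Of 6 protease inhibitors 5 were tested and 4 called in each strain. The Kunitz-domain gene mlt-11, needed for molting, peaked ahead of nas-37, at 240 min in tph-1 and 210 min in N2, with medians of 1636 RPM in tph-1 and 1433 RPM in N2 from 200 to 300 min. All 8 regulators of molting cycles were called in both strains. Among them nhr-23 peaked at 140 min in tph-1 and 150 min in N2, myrf-1 at 160 min in tph-1 and 170 min in N2, lin-42 at 280 min in tph-1 and 260 min in N2, and bed-3 at 410 min in tph-1 and 350 min in N2. Of the 4 collagens known or proposed as substrates, 4 were called in tph-1 and 3 in N2, and sqt-3 peaked after nas-4 and nas-37, at 330 min in tph-1 and 340 min in N2. The one gene of these lists called for an average strain difference was sqt-3, higher in tph-1 by 1.14 (limma adjusted p = 0.0111), and the one called for a different course was the cystatin cpi-2 (adjusted p = 0.0128).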

How the data were processed

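Single L4 animals, 1 library each, were grouped by labelled strain. The deposited values are RPM, each gene's reads scaled by the authors to the reads in all listed genes, as tested on the values: whole reads were recovered within 0.1 reads for 100% of values in every library. Alignment used STAR 2.7.9a per the submitters' processing notes; the sources used here do not give the genome build, annotation, counting tool or use of strand, so overlapping genes are uncertain. Coordinates come from the Ensembl 115 annotation of WBcel235. Reads carry no molecular identifiers, so depth covers counting error only.

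Tests used limma 3.58.1 with trend in R 4.3.3 on log2(RPM + 1), over the 14293 genes that reached 5 RPM in 10% or more of the animals, with Benjamini-Hochberg adjustment. Time was a natural spline with 4 degrees of freedom, read from 30 to 570 min, with set as a covariate; windows used the same covariate. Strain was tested on 12 set intercepts after a shared spline, and strain by spline over animals with set intercepts. Errors beside log2 changes are SE. The predicted age came from partial least squares with 5 components on 14259 genes without astacins (scikit-learn 1.9.0). Alternatives included edgeR 4.0.16 on recovered reads, which called 6636 genes along L4 in tph-1 and 5976 in N2. Scripts were tested on simulated data. The members and lists were chosen with earlier results of these data known. Values are given for 19 named members: the 12 largest ranges per strain, those called between strains and 6 with known roles; other members and genes were singled out after their values were seen. Labels call each library a single animal, but animals of 1 set may share a batch, so time p-values may partly measure that. The check of same-numbered sets is in the closing section.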

Additional observations from a re-analysis of the deposited data

Results flagged for a closer look

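Of 62 groups of set levels, 2 held a set far from the others, and chance gives about 5% of groups. The nas-3 level of tph-1 set 2 was 2.02 on the log2 scale, against 1.46 to 1.51 in the other 3 tph-1 sets. The nas-33 level of N2 set 7 was 2.87, against 2.18 to 2.35 in the other 7 N2 sets.

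The whole course through L4 was called different between tph-1 and N2, by an F test of strain by spline over animals, in 4 members. The late minus early change of tph-1 minus that of N2, a signed size not tested by itself, was -0.964 for nas-13, -0.862 for nas-20, -0.896 for nas-21 and -0.407 for nas-22, negative where the change was smaller in tph-1.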

How the results depend on the processing

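Of 48 called changes of named members, 33 kept their call under every alternative counted for them, 15 lost it under at least 1, and 0 turned direction. Alternatives that dropped the gene or gave no signed size were not counted. A filter at a mean of 10 RPM kept 15 members, of which 15 were called along L4 in tph-1 and 14 in N2. With it 7 were higher and 4 lower late in tph-1, 2 lower late in N2 and 1 with a different course, since fewer genes were tested. That 1 was none of nas-13, nas-20, nas-21 and nas-22, which fell under this filter. A pseudocount of 5 gave 4 lower late in tph-1 and 2 in N2, and 1 lower in mid L4 in tph-1 and 2 in N2; a pseudocount of 0.5 gave 7 lower in mid L4 in tph-1. Rescaling gave 3 lower late in tph-1 and 2 in N2. With edgeR on recovered reads 2 were lower late in N2, 7 lower in mid L4 in tph-1 and 9 differed in course. Without the set covariate 8 were lower late in N2 and 7 lower in mid L4 in tph-1. Over animals 6 members were higher and 3 lower in tph-1, and edgeR over animals gave 7 higher. Predicted age gave 20 with a different course. The cause of these moves was not tested. Counts in this section with no share over all genes beside them show how the calls moved and are not a result about the members. Without single sets the counts ran, in tph-1 and N2, from 28 to 30 and 24 to 26 along L4, 10 to 12 and 10 to 12 higher late, 8 to 9 and 2 to 5 lower late (2 without N2 set 1), 3 to 4 and 4 to 5 higher in mid L4, and 3 to 8 and 4 to 7 lower in mid L4 (8 in tph-1 when its set 1 was left out); 0 to 1 were higher and 0 lower in tph-1 than N2, and 2 to 10 differed in course, where the count was 7 without tph-1 set 3, 10 when tph-1 set 4 was left out, 7 without N2 set 1 and 2 when N2 set 4 was left out. With sets 1 to 4 of each strain paired by number as a block, 3 members (nas-1, nas-13 and nas-21) were higher in tph-1 (9.31% of all genes), and 3 without the block (6.25%). The set numbers share no meaning in the labels, and same-numbered sets correlated at 0.17, -0.04, 0.01 and 0.04 in their deviations from the strain means, so the block is not a pairing by design. Leaving out the 5 N2 animals that stood apart was chosen after seeing the data.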

Other observations

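At the same minute and set, animals with more RNA of the 4 pharynx markers also had more of some nas genes and, in N2, less of others. This was computed for 31 members in each strain, 62 relations in all, after the values were seen. It was not computed for other genes, so whether the nas genes differ from them in this is not known. The relation was positive in both strains, with Benjamini-Hochberg adjusted p under 0.05 for Pearson's r, for nas-4, nas-6, nas-8, nas-14, nas-15, nas-31 and nas-32. For nas-6, r was 0.49 over the 164 tph-1 animals and 0.50 over all N2 animals, with Spearman's rho of 0.53 in tph-1 and 0.44 in N2. Each two-sided permutation p of nas-6 was 1e-05, the smallest that 100000 permutations can give, with adjusted values of 8.9e-05 for r and 0.00012 for rho. Without the 2 animals farthest from the median marker level, r of nas-6 was 0.48 in tph-1 and 0.45 in N2. Within single sets it ran from 0.35 to 0.66 over the 4 tph-1 sets and from -0.46 to 0.93 over the 8 N2 sets, positive in 7. For nas-8, r was 0.41 in tph-1 and 0.46 in N2, positive in 4 of 4 tph-1 sets and 7 of 8 N2 sets. In N2 alone the relation was negative, with adjusted p of r under 0.05, for nas-11, nas-21, nas-23, nas-24, nas-36 and nas-38, from -0.28 for nas-36 (adjusted p = 0.00054) to -0.20 for nas-24 (0.018). For nas-24 it was positive in tph-1, at 0.25 (0.0041). The points share library, depth and any error of the labelled minute, whose part was not tested. The permutations treat animals of 1 set as independent. The relation was not computed without the N2 animals that stood apart. Among them, those at 301.6, 317.1 and 368.7 min had 4375, 8510 and 7864 RPM of pharynx markers. Their nas-6 levels were 134, 371 and 916 RPM.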
